A study of Mus musculus with 4 samples.

Results

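The genes described here are the 43 enzymes, subunits and transporters of glycolysis, of pyruvate handling and of the citric acid cycle, out of 24532 gene identifiers in the deposited tables. They were found in the tables by their mouse gene number. Of the 43, 20 encode cytosolic proteins, 20 mitochondrial proteins and 3 transporters of the plasma membrane. The mean TPM over the libraries was at least 1 for 42 of them, and these 42 were tested among 13652 genes. Hk2, the hexokinase best known from muscle and fat, was below that level, at a TPM of 0.756 and 0.887 (WT) and 0.472 and 1.01 (Kdm3b+/-).

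Bulk RNA came from hand-dissected vermis of the cerebellum, from the part enriched in granule cells (GCE tissue), and each of 2 WT and 2 Kdm3b+/- mice gave 1 library. All were adult males, and the WT mice were littermates of the mutants. The line had been backcrossed to C57Bl/6N and later crossed to C57Bl/6J. The Kdm3b+/- mice carried 1 allele with an inserted gene trap vector, pGT0lxf, in every cell, and the line came from 1 embryonic stem cell line. Kdm3b encodes a demethylase of histone H3 lysine 9, and the comparison asks how transcription differs when 1 copy of it is trapped.

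Glycolysis splits glucose to pyruvate in the cytosol. Hexokinase, phosphofructokinase and pyruvate kinase catalyse its irreversible steps, and the enzymes between them run near equilibrium. Pyruvate is either reduced to lactate or carried into mitochondria, where the pyruvate dehydrogenase complex turns it into acetyl-CoA for the citric acid cycle. In the brain several steps have isoenzymes that mark cell types: aldolase C is made by Purkinje cells and astrocytes including Bergmann glia, enolase 2 by mature neurons and enolase 1 more widely.

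The libraries held between 4.92 and 6.69 gigabases of aligned sequence. As a check of the labels, the TPM of Kdm3b was 9.10 and 11.0 for WT, and 8.30 and 7.90 for Kdm3b+/- mice. Both mutant values were below both WT values, but the difference did not pass the test (log2 fold change −0.27, SE 0.17, adjusted p = 0.424, limma). This order was also seen in 32.0% of all genes tested, so it is a weak check of the labels. The study reports that Kdm3b protein was significantly lower in the vermis of the mutants. All 10 granule cell markers were detected, and their summed TPM lay between 3502 and 4141 with no separation of the genotypes. WT mouse 1 stood apart: its 8 Purkinje cell markers summed to a TPM of 1201, against 539 in WT mouse 2 and 637 and 522 in the Kdm3b+/- mice. The sums of the 10 markers of astrocytes and Bergmann glia lay closer together, at 1343 and 1207 in WT mice and 1112 and 1296 in Kdm3b+/- mice. Fewer cells of a type and less RNA per cell cannot be told apart in bulk tissue. Fold changes below are differences of log2(TPM + 1), Kdm3b+/- minus WT, from limma across all genes, and a gene passed if it differed by more than 1.2-fold at an adjusted p under 0.05.

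The promoters of the aldolase and enolase pairs are shown first, because these families had the largest differences in isoenzyme share. Each run holds the 250 bases before a transcription start in RefSeq (GRCm38.p6), 5′ to 3′ on the gene's strand. The start nearest the deposited start of the gene was used, and other starts were not searched. Capitals mark the core of the hypoxia response element, ACGTG or GCGTG, on either strand (CACGT or CACGC when read from the other strand).
Aldoa, chr7:126800448-126800697, minus strand: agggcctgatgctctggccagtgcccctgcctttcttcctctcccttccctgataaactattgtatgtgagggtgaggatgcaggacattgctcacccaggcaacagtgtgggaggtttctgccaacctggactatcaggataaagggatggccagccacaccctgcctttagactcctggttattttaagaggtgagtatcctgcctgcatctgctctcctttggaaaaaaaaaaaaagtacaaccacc
Aldoc, chr11:78322823-78323072, plus strand: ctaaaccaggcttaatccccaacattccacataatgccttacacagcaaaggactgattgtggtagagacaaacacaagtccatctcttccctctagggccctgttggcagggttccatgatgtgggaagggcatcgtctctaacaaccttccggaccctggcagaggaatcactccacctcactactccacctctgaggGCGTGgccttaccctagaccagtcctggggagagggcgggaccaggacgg
Eno1, chr4:150236947-150237196, plus strand: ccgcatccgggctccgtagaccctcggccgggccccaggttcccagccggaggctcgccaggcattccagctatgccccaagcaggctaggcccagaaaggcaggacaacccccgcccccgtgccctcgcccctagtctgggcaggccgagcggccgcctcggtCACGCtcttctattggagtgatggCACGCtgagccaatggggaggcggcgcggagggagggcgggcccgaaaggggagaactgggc
Eno2, chr6:124769674-124769923, minus strand: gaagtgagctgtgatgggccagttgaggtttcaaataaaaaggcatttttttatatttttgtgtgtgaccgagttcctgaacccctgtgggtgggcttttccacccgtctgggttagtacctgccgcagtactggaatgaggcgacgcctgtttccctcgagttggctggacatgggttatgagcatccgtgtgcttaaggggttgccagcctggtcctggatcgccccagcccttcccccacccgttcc
The Eno1 window held 2 such cores and the Aldoc window 1, while the Aldoa and Eno2 windows held none. The Eno1 window had a GC content of 71.2%, against 50.4% to 55.2% in the rest. Promoters were found for 40 of the 43 members, and not for Idh3a, Slc2a3 and Slc16a7. The hypoxia core was present in 28 of the 40 (70%), compared with 44.4% of 18245 promoters of the same length. These 18245 were taken without a filter on TPM, so they include genes that were not tested. Members' promoters also had a higher median GC content, 61.4% against 55.6%, and its part in the motif count was not tested. The E-box CACGTG, which always contains ACGTG, was present in 5 of 40 (12.5% against 6.82% of all), the NRF1 core GCATGCGC in 2 (5% against 3.07%), and the ERR element TCAAGGTCA in none (against 0.329%).

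No member passed the test between genotypes. The 5 members with an unadjusted p under 0.05 were Eno1 and Mpc2, with higher TPM in the Kdm3b+/- mice, and Aldoc, Hk1 and Pdk2, with lower TPM. This is 11.9% of the 42 members tested, and the share among all genes tested was 17.0%. By direction, 2 were higher (background 5.47%) and 3 lower (background 11.5%). Their adjusted p-values lay between 0.142 and 0.258. Over all genes tested, 63 (0.461%) passed the threshold. The TPM of the members in each library is plotted on a log axis.

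**Figure D1:**
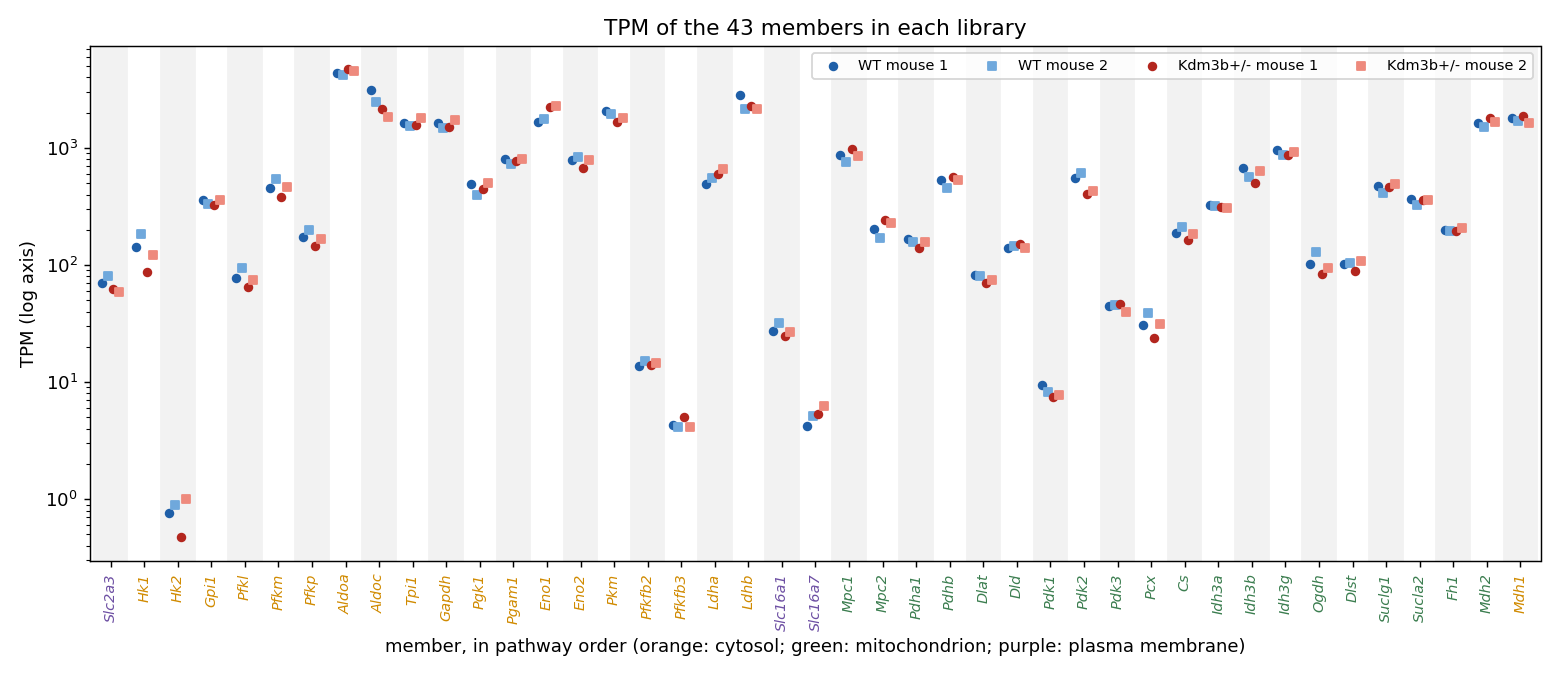
TPM (log axis) of the 43 members in pathway order, with 1 point per mouse (blue, WT; red, Kdm3b+/-). Levels run from under 1 for Hk2 to above every other member for Aldoa, and for most genes the genotypes lie close together beside this range.

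In level, TPM being scaled to gene length, the pathway was led by Aldoa, aldolase A, with a mean TPM of 4267 in WT mice, followed by Aldoc at 2807, Ldhb at 2497 and Pkm at 2006. The lowest members after Hk2 were Pfkfb3 at 4.24, Slc16a7 at 4.68 and Pdk1 at 8.81. All 43 members together held 3.07% and 2.84% of the total TPM for WT and 2.90% and 2.93% for Kdm3b+/- mice, so that the mutants lay between the WT mice. The 20 cytosolic members held between 2.12% and 2.29%, with both mutant values again inside the WT range, as were the 20 mitochondrial members at 0.748% and 0.747% between 0.711% and 0.764%.

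The direction of the members was mixed. Of the 42, 17 had a positive and 25 a negative fold change (59.5% negative, beside 60.4% of all genes), with a median of −0.04 against −0.07 for all genes tested. The median was −0.02 over 19 cytosolic members and −0.06 over 20 mitochondrial members. The values of both Kdm3b+/- mice lay above those of both WT mice for 7 members (16.7%, background 19.2%) and below them for 14 members (33.3%, background 32.0%), so that 21 of 42 (50%) were separated, against 51.3% of all genes, and the other 21 overlapped. The separated shares were thus near those of all genes in each direction. With 2 mice against 2, an exact permutation test of a single gene cannot give a two-sided p below 0.333. The fold changes are plotted gene by gene with their standard errors.

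**Figure D2:**
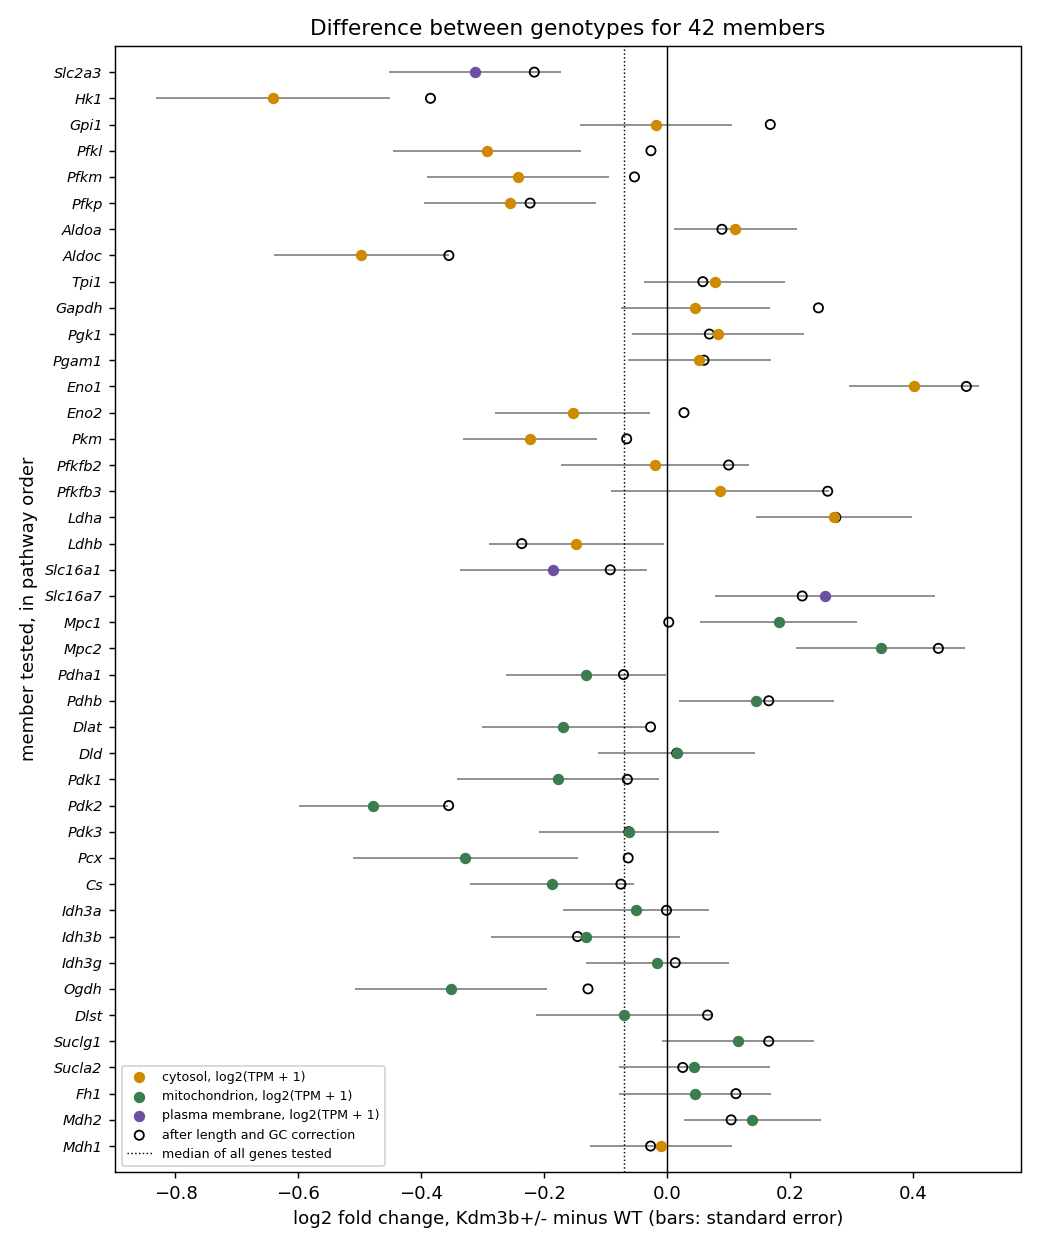
Fold change (log2, Kdm3b+/- minus WT) of the 42 members tested, in pathway order. Filled points show log2(TPM + 1) with the SE as a bar, open circles the values after correction for transcript length and GC content, and the dotted line the median of all genes tested. Hk1 lies lowest at −0.64 and Eno1 highest at 0.40.

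At the entry of glycolysis, the values were lower in the mutants. Slc2a3 (GLUT3), the neuronal glucose transporter, had a TPM of 70.8 and 80.6 in WT mice and of 62.5 and 58.9 in Kdm3b+/- mice (log2 fold change −0.31, SE 0.14, adjusted p = 0.297, limma). Hk1 (chr10:62268855-62379908), the main hexokinase of brain, had 143 and 185 against 87.8 and 123. This was the largest difference among the members on the log2 scale, −0.64 (SE 0.19, 95% interval −1.07 to −0.21), but its adjusted p was 0.175. Leaving out single mice moved it between −0.88 (without Kdm3b+/- mouse 2) and −0.40 (without Kdm3b+/- mouse 1), and it was −0.83 and −0.45 without WT mouse 1 and 2. An antisense gene, Hk1os, overlaps it and had a TPM of at least 1.06 in each library, and whether reads were assigned by strand is not given in the sources used here. Hk1 made up 99.2% to 99.5% of the hexokinase TPM in every library.

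The phosphofructokinases, which set the pace of glycolysis, were lower on average in every form. Pfkm, the most abundant, had a TPM of 454 and 545 against 378 and 467, and the groups overlapped. Pfkp, the platelet form, had 175 and 199 against 145 and 168, and Pfkl, the liver form, had 77.0 and 94.0 against 64.9 and 73.8. The log2 fold changes were −0.24, −0.26 and −0.29, with adjusted p-values from 0.355 to 0.425. They depended on single mice: Pfkm was at −0.09 and Pfkp at −0.15 without Kdm3b+/- mouse 1, and Pfkl at −0.15 without WT mouse 2. The lowest values were −0.39 and −0.36 without Kdm3b+/- mouse 2 for Pfkm and Pfkp and −0.44 without WT mouse 1 for Pfkl. The composition of the family differed by less than the spread between mice, since Pfkm held 64.3% and 65.0% of it in WT mice and 64.3% and 65.8% in Kdm3b+/- mice.

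Pkm, pyruvate kinase, had 2060 and 1953 for WT and 1652 and 1786 for mutant mice (log2 fold change −0.22, SE 0.11, adjusted p = 0.332, limma). The deposited values are per gene, so the M1 and M2 forms of Pkm are not separated. Together the 5 tested genes of the irreversible steps, Hk1, the phosphofructokinases and Pkm, all had negative fold changes (median −0.26). Of all genes, 60.4% were negative. In this set 4 of the 5 were lower without overlap between genotypes (background 32.0%). After correction for transcript length and GC content, their median was −0.07.

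The near-equilibrium enzymes between these steps include the aldolases and enolases, described below, of which Aldoa, Aldoc and Eno1 did not overlap between the genotypes. The other 5, Gpi1, Tpi1, Gapdh, Pgk1 and Pgam1, all overlapped, and their median log2 fold change was 0.05. Gapdh, which is often taken as a reference gene, had a TPM of 1646 and 1474 in WT mice and of 1500 and 1722 in Kdm3b+/- mice, a log2 fold change of 0.05 with a 95% interval from −0.23 to 0.32. After correction for length and GC content Gapdh was at 0.25, Gpi1 went from −0.02 to 0.17, and the median of these 5 genes was 0.07. The correction used each gene's longest transcript, 3289 bases for Gapdh, and whether that form was the one expressed was not tested. Processed copies of Gapdh are common in the mouse genome, and how reads matching several places were counted is not given in the sources used here. Pfkfb2 and Pfkfb3, which make and remove the allosteric activator of phosphofructokinase, were low (mean TPM of 14.4 and 4.24 in WT mice) and overlapped.

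The aldolases split fructose 1,6-bisphosphate, and their forms had fold changes of opposite sign. Aldoa (chr7:126795234-126800447) had a TPM of 4321 and 4212 in WT mice and of 4689 and 4522 in Kdm3b+/- mice, a log2 fold change of 0.11 (SE 0.10, adjusted p = 0.597, limma). Aldoc (chr11:78323073-78327778) had 3146 and 2468 against 2134 and 1824 (log2 fold change −0.50, SE 0.14, 95% interval −0.82 to −0.18, adjusted p = 0.172, limma). Aldoc thus made up 42.1% and 36.9% of aldolase TPM in WT mice and 31.3% and 28.7% in mutants. The mean share was lower by 9.53 percentage points in Kdm3b+/- mice, with an exact permutation p of 0.333, the smallest possible. The summed aldolase TPM overlapped between genotypes.

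Aldoc was highest in WT mouse 1, the library with the high Purkinje cell markers. Slc1a3 (GLAST), a defining transporter of Bergmann glia and astrocytes, had a TPM of 169 and 124 against 104 and 104. All 8 Purkinje cell markers tested had negative fold changes (median −0.51), beside 60.4% of all genes. For 3 of them the unadjusted limma p was under 0.05 (background 11.5% for lower values). These 3 were also the only ones lower without overlap (background 32.0%). For Pcp2, Car8 and Ppp1r17 WT mouse 2 lay below both mutants, so their negative fold changes rested on WT mouse 1. Of the 10 astrocyte and Bergmann glia markers 7 were negative. In that list 4 were lower (background 11.5%) and 2 higher (background 5.47%) at an unadjusted p under 0.05. Of these, Aqp4, the astrocyte water channel, passed the test with a higher level. No defining marker of either cell type was at 0. Without WT mouse 1 the log2 fold change of Aldoc was −0.32 and the difference in share was −6.93 points. The part of these cell types in the aldolase values was not tested.

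The enolases, which make phosphoenolpyruvate, showed the other large difference in share. Eno1 (chr4:150237197-150248873) had a TPM of 1670 and 1755 in WT mice and of 2234 and 2290 in Kdm3b+/- mice. The difference of 0.40 (SE 0.11, 95% interval 0.16 to 0.64, adjusted p = 0.153, limma) was the largest positive one among the members. Eno2 (chr6:124760053-124769673) had 789 and 832 against 670 and 791 (log2 fold change −0.15, SE 0.13, adjusted p = 0.548, limma). Eno1 held 67.9% and 67.8% of enolase TPM in WT mice and 76.9% and 74.3% in mutants, a difference of 7.75 points with an exact permutation p of 0.333. The summed enolase TPM was 18.6% higher in the mutants with no overlap, unlike that of the aldolases. A further entry, Eno1b, shares 11550 bases with Eno1 on the same strand, so that reads may be split between them, and its TPM was 45.8 and 47.3 against 62.4 and 62.2. When both entries were added the log2 difference was again 0.40.

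The shares of the isoenzymes in each library are plotted together.

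**Figure D3:**
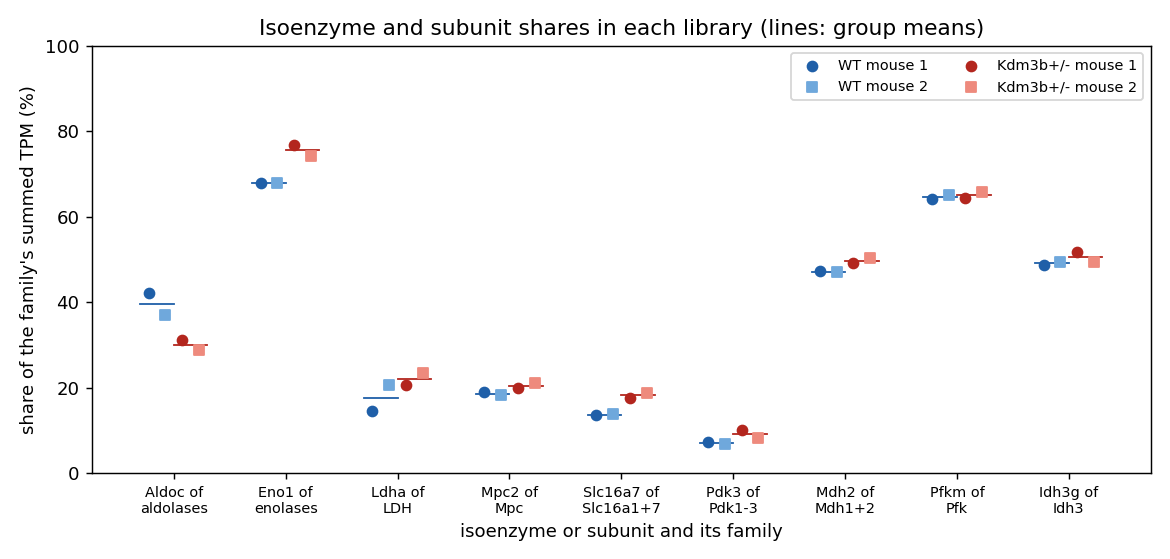
Share of a family's summed TPM (%) held by 1 isoenzyme or subunit, with 1 point per mouse and a line at the group mean. The genotypes separate by 9.53 points for Aldoc and 7.75 points for Eno1. They also separate for Mpc2, Slc16a7, Pdk3 and Mdh2, by 1.83 to 4.61 points, while they overlap for Ldha, Pfkm and Idh3g.

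Lactate dehydrogenase joins pyruvate and lactate. Ldha, its muscle form, had a TPM of 488 and 558 in WT mice and of 599 and 663 in mutants (log2 fold change 0.27, SE 0.13, adjusted p = 0.312, limma). Ldhb, the heart form and the more abundant here, had 2849 and 2145 against 2300 and 2163. Its value in WT mouse 1 was above all others, and its log2 fold change of −0.15 was 0.06 without that mouse. The Ldha share was 14.6% and 20.7% against 20.7% and 23.5%, so that the groups overlapped.

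Of the monocarboxylate transporters, which move lactate and pyruvate over the plasma membrane, Slc16a1 (MCT1) had 27.1 and 32.0 against 24.9 and 26.7. Slc16a7 (MCT2), the neuronal form, was at 4.25 and 5.11 against 5.35 and 6.20. Neither difference passed the test. The share of Slc16a7 in their sum was 13.5% and 13.8% in WT mice and 17.7% and 18.9% in Kdm3b+/- mice.

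Both subunits of the mitochondrial pyruvate carrier had positive fold changes. Mpc2 had a TPM of 204 and 170 in WT mice and of 244 and 230 in Kdm3b+/- mice (log2 fold change 0.35, SE 0.14, 95% interval 0.04 to 0.66, adjusted p = 0.258, limma). Mpc1 had 869 and 756 against 981 and 861, and its groups overlapped narrowly. The log2 fold change of Mpc1 was 0.18, and it was 0.08 without WT mouse 2, 0.09 without Kdm3b+/- mouse 1 and 0.0021 after correction for length and GC content. That of Mpc2 was 0.21 without WT mouse 2. Their sum, of which Mpc1 is the larger part, was 15.9% higher in the mutants without overlap and without correction, at 1073 and 926 against 1225 and 1091.

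Within the pyruvate dehydrogenase complex the subunits did not share a direction. Pdhb, the E1 beta subunit, had 532 and 459 in WT mice against 560 and 533. Pdha1, the E1 alpha subunit, had 167 and 159 against 141 and 156, and Dlat, the E2 core, had 81.5 and 80.8 against 69.7 and 74.5. The shared E3 subunit, Dld, overlapped at 140 and 146 against 150 and 139. The ratio of Pdhb to Pdha1 was 3.19 and 2.89 in WT mice and 3.98 and 3.41 in mutants. None of these 4 genes had an unadjusted p under 0.05. The log2 fold changes of Pdhb, Pdha1 and Dlat were 0.14, −0.13 and −0.17. After correction for length and GC content they were 0.16, −0.07 and −0.03.

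Pdk2 (chr11:95026258-95041371), a kinase that switches the complex off, had a TPM of 551 and 606 in WT mice and of 402 and 427 in Kdm3b+/- mice. Its log2 fold change was −0.48 (SE 0.12, 95% interval −0.75 to −0.21), with the smallest adjusted p of all members, 0.142 by limma. Pdk1 had 9.45 and 8.18 against 7.50 and 7.81, and Pdk3 overlapped at 44.6 and 45.6 against 46.7 and 39.8. Pdk2 was the main form, holding 91.1% and 91.9% of the TPM of these kinases in WT mice and 88.1% and 90.0% in mutants. Pcx, pyruvate carboxylase, an enzyme of astrocytes that refills the cycle, had 30.6 and 39.2 against 24.0 and 31.3 (log2 fold change −0.33, SE 0.18, adjusted p = 0.387, limma). It was −0.06 after correction for length and GC content, and −0.14 without Kdm3b+/- mouse 1 and −0.16 without WT mouse 2.

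In the citric acid cycle 4 of 10 members had positive and 6 negative fold changes, with a median of −0.03. Ogdh, the E1 subunit of the 2-oxoglutarate dehydrogenase complex, had 101 and 129 against 84.4 and 94.8 (log2 fold change −0.35, SE 0.16, adjusted p = 0.295, limma). It was −0.18 without WT mouse 2 and −0.13 after correction for length and GC content. Its E2 partner, Dlst, overlapped at 101 and 104 against 88.6 and 108. Cs, citrate synthase, had 188 and 210 against 164 and 184. At the end of the cycle, Mdh2, the mitochondrial malate dehydrogenase, was at 1625 and 1516 in WT mice and at 1802 and 1656 in mutants (log2 fold change 0.14).

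The remaining cycle genes had log2 fold changes between −0.13 and 0.11, and equality was not tested. The isocitrate dehydrogenase subunits Idh3a, Idh3b and Idh3g had log2 fold changes of −0.05, −0.13 and −0.02, and for Idh3b the sign depended on single mice (0.00079 without WT mouse 1 and 0.05 without Kdm3b+/- mouse 1). Those of the succinyl-CoA ligase subunits Suclg1 and Sucla2 were 0.11 and 0.04, and that of fumarase, Fh1, was 0.05. Mdh1, the cytosolic malate dehydrogenase of the malate-aspartate shuttle, had 1806 and 1705 against 1861 and 1632. The share of Mdh2 in the sum of both malate dehydrogenases was 47.4% and 47.1% in WT mice and 49.2% and 50.4% in Kdm3b+/- mice.

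The fold changes of the members were also set beside transcript length, since Hk1 and the phosphofructokinase genes have long transcripts. Among the 21 members with a longest transcript of at most 2776.5 bases, 13 (61.9%) had a positive fold change and the median was 0.05. Among the 21 longer ones, 4 (19.0%) were positive and the median was −0.18. All genes tested showed the same kind of difference: 54.8% of 4817 shorter genes and 28.9% of 8087 longer genes were positive, with medians of 0.03 and −0.13.

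**Figure D4:**
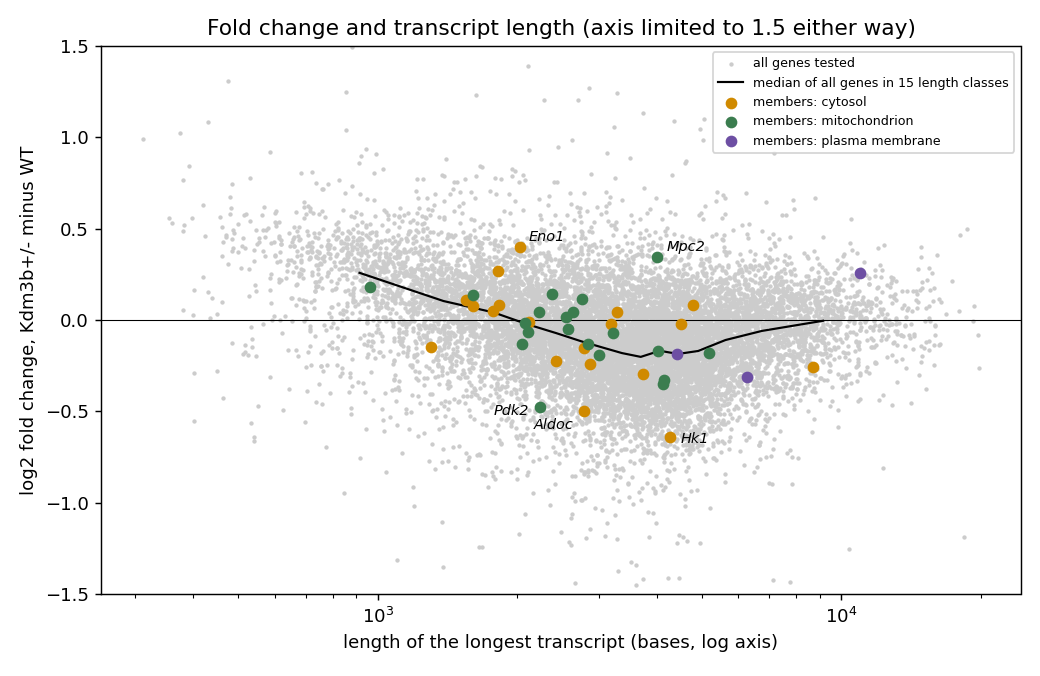
Log2 fold change (Kdm3b+/- minus WT) against the length of the longest transcript in bases (log axis) for members (coloured) and all genes tested (grey). The line is the median of all genes in length classes. It falls with length over the range that holds most members, and Hk1, Aldoc and Pdk2 lie below it and Eno1 and Mpc2 above.

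After correction for length and GC content, the median was 0.01 for all members and 0.06 for cytosolic members. The groups then did not overlap for 13 members higher and 6 lower, instead of 7 and 14. The correction also moved the median of all genes tested, from −0.07 to 0.0018. The separated shares of all genes were not counted after it, so these counts have no background beside them. Pfkl was at −0.03, Pfkm at −0.05 and Pkm at −0.07, whereas Hk1 remained at −0.39 and Pfkp at −0.22. Eno1 was at 0.49 (adjusted p = 0.0890), Mpc2 at 0.44, Pdk2 at −0.36 and Aldoc at −0.36, and the Aldoc groups overlapped. Eno2 turned from −0.15 to 0.03. Without correction 10 members, Hk1, the phosphofructokinases and Ogdh among them, were highest in WT mouse 2 and lowest in Kdm3b+/- mouse 1. This is 23.8% of the members tested, beside 24.2% of all genes.

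Another 46 genes of the same pathways, which were listed but are not among the 43, gave 34 tested genes. None passed the test. At an unadjusted p under 0.05 none was higher (background 5.47%) and 12 were lower (35.3%, background 11.5%). The median log2 fold change was −0.19. After correction for length and GC content, 4 were lower (against 7.51% of all genes) and 2 higher, and the median was −0.08. The share of all genes for higher values was not counted after the correction. Without WT mouse 1 the median was −0.17. The smallest adjusted p, 0.0805, belonged to Pdk4, the starvation-induced form of the pyruvate dehydrogenase kinase, with a TPM of 6.13 and 8.10 in WT mice and of 3.21 and 3.03 in mutants (log2 fold change −0.97, limma).

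The others covered several steps. At the entry they were Slc2a1 (GLUT1), the transporter of endothelium and glia (−0.38), and Hkdc1, a hexokinase relative (−0.72). Around pyruvate they were Pdp1, the phosphatase that reactivates pyruvate dehydrogenase (−0.38), and Ldhd, which oxidises D-lactate (−0.44). In the cycle they included Sdha, the flavoprotein of succinate dehydrogenase (−0.28), Idh2 (−0.31) and Ogdhl (−0.52). Further genes were Gpd1 of the glycerol phosphate shuttle (−0.53), Pck2 (−0.37) and Pfkfb4 (−0.39).

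No subunit of succinate dehydrogenase passed the test, and differences between the subunits were not tested. Sdha had a TPM of 637 and 633 in WT mice and of 499 and 546 in mutants (log2 fold change −0.28, adjusted p = 0.269, limma), while Sdhb, Sdhc and Sdhd had log2 fold changes of 0.13, −0.03 and 0.13. The germ cell and liver forms Ldhc, Pdha2 and Fbp1 were listed at 0 in every library. A list of 11 genes known to respond to hypoxia, which includes Slc2a1 but no member, had 2 genes higher (18.2%, background 5.47%) and 2 lower (18.2%, background 11.5%) at an unadjusted p under 0.05, none past the threshold, and a median of −0.05. Adm had a TPM of 3.67 and 3.22 in WT mice and of 5.66 and 5.38 in mutants, while Car9 had 27.7 and 28.5 against 16.3 and 18.1.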

How the data were processed

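The authors trimmed low-quality bases, aligned reads with STAR and estimated abundance with StringTie. Versions, build and annotation are not given in the sources used here. The deposited TPM corrects for gene length and sums to a fixed total per library. The deposited coverage (signal) is the unscaled read depth, and the deposited FPKM is scaled to length and mapped fragments. Their ratio gave the gigabases aligned. Read counts were not recovered, so no count model was run.

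Entries sharing a gene number (220 numbers) were summed, and symbols were found for 24462 of 24532 numbers. Testing used log2(TPM + 1), limma 3.58.1 (trend) in R 4.3.3 and a model of genotype alone, for the 13652 genes whose mean TPM reached 1, with Benjamini-Hochberg adjustment over them. The study's methods name DESeq2 on estimated counts, which the deposited unit does not allow. The fit was tested on simulated data. Isoenzyme shares were percentages of summed TPM, with two-sided exact permutation tests. Robust fits used statmod 1.5.0. Python 3.11.15, NumPy 2.4.6, pandas 2.3.3 and Matplotlib 3.10.9 made tables and figures.

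Transcript length and GC came from the longest GENCODE transcript of GRCm38 and were found for 12904 genes tested. The longest form need not be the main one expressed. Corrected values, such as those of Gapdh (3289 bases) and Mpc2 (4015 bases), depend on this choice. The correction removed a smooth trend (loess, span 0.3) from each library. Promoters were 250 bases of RefSeq GRCm38.p6, and a gene with several was given the one nearest its deposited start. The deposited starts of the printed genes coincided with them, which this choice favours. Whether the libraries kept strand is not given in the sources used here, so reads of members that overlap a gene on the opposite strand (Hk1, Pfkm, Pfkp, Pfkfb2, Tpi1, Idh3b, Mpc1, Pcx, Pdha1) may include that gene's. The limma p-values set the genotype difference against the spread between mice. Each gene's variance was moderated toward that of genes of like level. Groups came from the genotype labels. Members, lists and tests were chosen with earlier results of these data known. All members could be named. Of the other pathway genes those with an unadjusted p under 0.05 were named, except for a gene that is not reported here. Slc1a3, Aqp4, the succinate dehydrogenase subunits, Adm and Car9 were singled out after their values were seen. Alternatives covered pseudocount, filter, scaling, the 20 highest genes, robust fitting, replicate block, length and GC correction, and leaving out each mouse.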

Additional observations from a re-analysis of the deposited data

How the results depend on the processing

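For 27 members with an absolute log2 fold change of at least 0.1, 351 values under alternative settings were compared with the reported ones. Of these, 340 kept direction and side of the threshold, 6 newly passed and 5 reversed. Filters, robust fitting and the replicate block leave each fold change as it was, so direction could not change there. The corrected fit with the block likewise repeats the fold changes of the corrected fit. The count of 340 therefore overstates how far direction was tested. The reversals were Eno2 (0.0269 after length and GC correction, with or without the replicate block), Ldhb (0.0565 without WT mouse 1, in a range from −0.353 over single mice left out) and Idh3b (0.00079 without WT mouse 1 and 0.0455 without Kdm3b+/- mouse 1, in a range from −0.312). The cause was not tested.

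Under median-ratio scaling, which shifts the median of all genes from −0.07 to −0.00454, the median of the members was 0.0353, that of cytosolic members 0.0539 and that of mitochondrial members 0.0154, and 12 members were higher without overlap. Length and GC correction gave 0.00741, 0.0576 and 0.000289, with 13 members higher and 6 lower without overlap, and the same values with the block. The separated shares of all genes under these settings were not counted. The number of members past the threshold was 0 under all settings that kept every mouse, except for the fit with replicate number as a block, where Hk1, Aldoc, Eno1 and Pdk2 passed (4 members, adjusted p from 0.0188 to 0.0462) and 600 of all genes did, against 63. Same-numbered mice are different animals, and their deviations correlated at 0.121 (0.0194 after correction), so the numbers were not taken as pairs. With the block and the correction together no member passed. With no filter on mean TPM, 1 of all genes passed.

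Leaving out each mouse leaves 1 sample in a group, which is assumed to vary like the other group. Members past the threshold were then 0 to 1: Aldoc without Kdm3b+/- mouse 1 (adjusted p = 0.0210, limma) and Hk1 without Kdm3b+/- mouse 2 (adjusted p = 0.0381). The medians ranged from −0.0645 to −0.00668 for all members, from −0.0641 to 0.0315 for cytosolic and from −0.0612 to −0.0101 for mitochondrial members. Without overlap were 8 to 17 members higher, 18 to 20 lower and 26 to 35 in all. Separation is easier to reach with 1 mouse in a group, and the shares of all genes were not counted here. The share differences, an alternative chosen after seeing the data, ranged from −12.1 to −6.93 points for Aldoc, 6.45 to 9.05 for Eno1, 1.40 to 7.44 for Ldha, 1.26 to 2.41 for Mpc2, −3.33 to −1.49 for Pdk2 and −0.32 to 1.17 for Pfkm. Depth per gene is known only as aligned bases, so no counting interval was given.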
